A study of Mus musculus with 8 samples.

Results

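Microglia are the resident macrophages of the brain: they survey the tissue with motile processes, clear debris and synapses, and depend on signalling through Csf1r. Border macrophages, which line vessels and meninges, form a related population that carries markers such as Mrc1 and F13a1. Both lie in the cluster described here, the nuclei of mouse striatum that the authors' deposited annotation names "4.Macrophage". It holds 2638 of 55672 annotated nuclei (4.74%), and no other rule was used to choose them.

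The 32 mice, all 12 weeks of age, belonged to 8 inbred strains. CAST/EiJ, PWK/PhJ and WSB/EiJ are wild-derived, and the classical strains were C57BL/6, A/J, 129S1/SvImJ, NOD/ShiLtJ, a model of autoimmune diabetes, and NZO/HlLtJ, a model of obesity. C57BL/6 stands here for a strain whose substrain the sources give in different ways, C57BL/6J in the design text and C57BL/6NJ in the deposited annotation, so which of these the C57BL/6 values describe is not settled. No mouse carried a treatment or an engineered allele per the labels. Nuclear RNA and open chromatin were read together in a single-nucleus assay, and each of 4 batches pooled 1 mouse of every strain, so that a mouse is a strain in a batch and each strain has n = 4. Both sexes were present in every batch, but the labels do not tie sex to a mouse, and sex was not a term of any test. The comparison the design implies is how the expression of each gene in these nuclei differs with genetic background.

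The cluster was shallow. Its nuclei held a median of 1432 UMIs (unique molecular identifiers, the counted RNA molecules) and 971 genes, against 4608.5 UMIs in all other annotated nuclei. A mouse gave 24 nuclei (CAST/EiJ of batch 3) to 220 nuclei (A/J of batch 2), and 27325 to 365425 counts after summing over its nuclei. The median UMIs of a mouse averaged from 1320 in PWK/PhJ to 1520 in NOD/ShiLtJ. In a permutation test within batches the strain term of this depth passed the threshold (F = 4.57, p = 0.00358), but not without batch 1 (p = 0.0727) or batch 2 (p = 0.0683). Of 2635 barcode sequences, 3 occurred in more than 1 batch. Batch 3 stood apart in these nuclei. The median UMIs of a mouse were lowest in batch 3 in all 8 strains, and 22 of 25 microglia identity genes had their highest batch mean there. The summed level of those genes was 29200 CPM ± 5620 (SD, n = 8 mice) in batch 3, against 18000 ± 2250, 17700 ± 2300 and 21700 ± 2380 in batches 1, 2 and 4, where CPM are counts per 1000000 counts of a library. The batch was a term in every test across genes below.

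The markers went with the label. Csf1r, the receptor that microglia need to survive, was at 1240 CPM over all macrophage nuclei and at 3.22 CPM over all other nuclei pooled. Cx3cr1, the fractalkine receptor, was at 1290 and 13.2 CPM, the ADP receptor P2ry12 at 1520 and 26.8 CPM, and C1qa, a chain of the first complement component, at 1400 and 7.55 CPM. Sall1, the transcription factor that separates microglia from other macrophages, was at 327 against 5.54 CPM, and Siglech at 874 against 1.54 CPM. These ratios describe the cluster that they helped to form and carry no test.

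**Figure D1:**
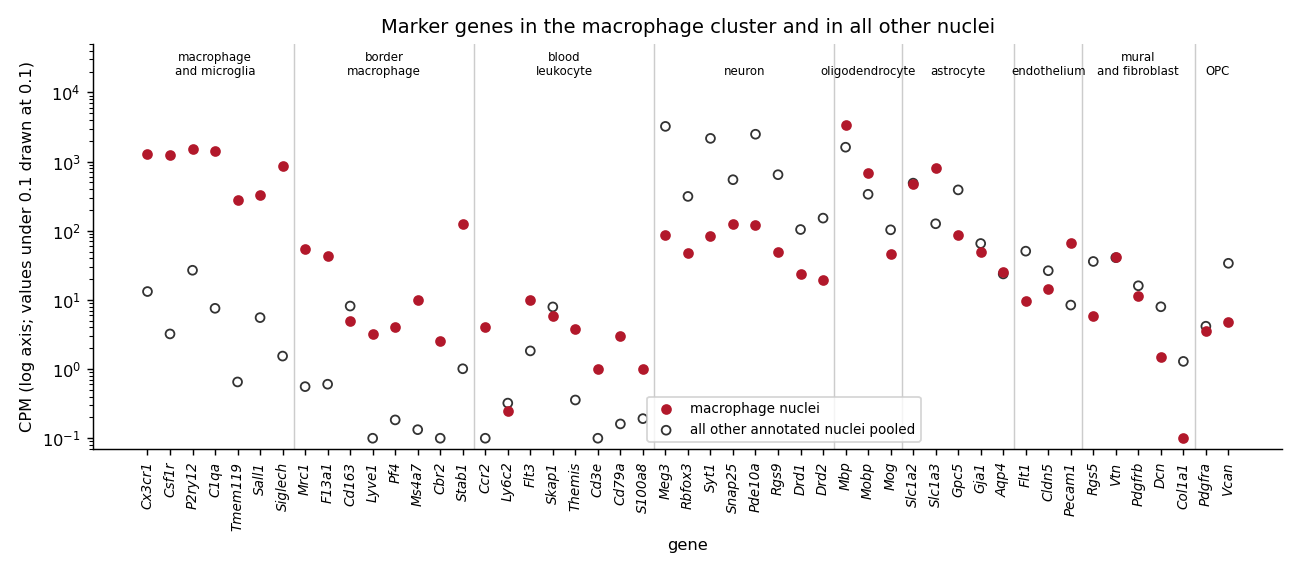
CPM (log axis) of the listed marker genes, summed over all macrophage nuclei (filled) and over all other annotated nuclei (open), by the cell type each gene marks. The 7 macrophage and microglia markers drawn lie at 275 to 1520 CPM in the cluster; neuronal markers lie below their level in other nuclei.

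Among the 25 genes of at least 100 CPM with the highest ratio to all other nuclei, several belong to blood-cell signalling. Arhgap45, a GTPase-activating protein, was at 567 CPM with a ratio of 1390. Rhoh, a GTPase of blood cells, was at 202 CPM (ratio 1320), and Vav1, an exchange factor downstream of immune receptors, at 171 CPM (ratio 1060). The UDP receptor P2ry6 (331 CPM, ratio 1030), the sialic acid receptor Cd33 (320 CPM, ratio 1050), the inhibitory receptor Havcr2 (223 CPM, ratio 998) and the transcription factor Runx1 (597 CPM, ratio 928) followed, and 626 genes in all had 100 CPM or more and a ratio of at least 3. The first of the list, Gm2629 (490 CPM, ratio 2120), and the fourth, Gm10790 (479 CPM, ratio 1300), are predicted genes without a named function.

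Many genes of the macrophage lineage are bound by the ETS factor PU.1, the product of Spi1, whose preferred site contains GAGGAAGT. The 250 bases before the gene start, from RefSeq (GRCm38.p6, the build that the submitters' processing notes name), were available for 18 of the 25 leading genes. All 18 overlapped a peak of open chromatin in the authors' list of 291715 peaks, which were not called by cell type, beside 55.2% of 27025 genes with a promoter entry. The motif GAGGAAGT, on either strand (ACTTCCTC on the other), was in 3 of the 18, beside 2.79% of all 27025. These 3 promoters are shown because each carries the motif within 30 bases of the gene start, with the motif in capitals and the strand of the gene read 5′ to 3′. They are Cd37, a tetraspanin of leukocytes (chr7:45238840-45239089, minus strand, motif from base -25), Havcr2 (chr11:46454681-46454930, plus strand, from base -8) and Vav1 (chr17:57278850-57279099, plus strand, from base -11). A match of letters does not show that a factor binds there.
Cd37: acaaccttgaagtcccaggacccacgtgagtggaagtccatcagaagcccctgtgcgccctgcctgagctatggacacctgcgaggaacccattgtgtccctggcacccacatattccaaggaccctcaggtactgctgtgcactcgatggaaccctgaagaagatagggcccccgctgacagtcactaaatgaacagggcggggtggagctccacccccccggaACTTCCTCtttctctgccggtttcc
Havcr2: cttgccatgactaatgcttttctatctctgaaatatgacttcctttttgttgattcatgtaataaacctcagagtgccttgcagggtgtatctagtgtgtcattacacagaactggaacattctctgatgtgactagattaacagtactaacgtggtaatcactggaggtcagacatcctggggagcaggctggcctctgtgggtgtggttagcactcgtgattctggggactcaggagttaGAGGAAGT
Vav1: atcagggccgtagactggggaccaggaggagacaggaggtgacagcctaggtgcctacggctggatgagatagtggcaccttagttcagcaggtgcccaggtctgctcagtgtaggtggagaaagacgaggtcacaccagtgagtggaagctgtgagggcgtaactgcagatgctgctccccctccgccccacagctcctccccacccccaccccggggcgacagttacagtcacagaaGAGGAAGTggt

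Nearly all nuclei carried several microglia identity genes. Of 2638 nuclei, 2595 (98.4%) had UMIs of 5 or more of the 25 genes, beside 0.0663% of oligodendrocytes and 0.147% of astrocytes, whose median depths were 1640 and 2220.5 UMIs. The median macrophage nucleus had 13. This count does not separate microglia from border macrophages, as the median of 8 given below for the latter shows. Border macrophage genes split the nuclei: 2145 had none of the 15 listed, 427 had 1 and 24 had 2, whereas 42 (1.59%, 95% binomial interval 1.15% to 2.15%, exact Clopper-Pearson, counting error only) had 3 or more and up to 11. The limit of 3 was set after the distribution was seen, and 32 nuclei lay between 2 and 4 genes. The 42 had a median of 8 microglia identity genes and 1215 UMIs, against 1434.5 UMIs in the rest. Markers of blood leukocytes were low over the cluster as a whole. The chemokine receptor Ccr2 of monocytes was at 4.01 CPM, Ly6c2 at 0.251 CPM, Cd3e of T cells at 1.0 CPM and Flt3 at 10.0 CPM. Of 20 leukocyte genes, 104 nuclei had at least 1 and 7 nuclei had 3 or more. Such levels cannot show that a few leukocytes were absent, as the border macrophage gene Pf4 was also at 4.01 CPM. No proliferation gene reached the level needed for a test.

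Marker RNA of other cell types was present. The myelin gene Mbp was at 3410 CPM, 2.12 times its level in all other nuclei pooled, and at 7460 CPM in oligodendrocytes. Mobp, also of myelin, was at 685 CPM (ratio 2.04, 1750 CPM in oligodendrocytes). The astrocyte transporter Slc1a2 was at 481 CPM, against 6550 CPM in astrocytes. Neuronal Meg3 was at 86.7 CPM, against 3220 CPM in all other nuclei, while Col1a1 of fibroblasts had no count. The summed level of 7 oligodendrocyte genes ranged from 3200 to 6050 CPM over the 32 mice, and that of 10 neuronal genes from 572 to 1360 CPM. The highest strain means of these sums, 5280 and 1040 CPM, were those of PWK/PhJ.

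Macrophages made up a different share of the nuclei in different strains. The share ranged from 3.11% ± 0.645 (SD, n = 4) in CAST/EiJ to 5.83% ± 0.523 in PWK/PhJ. The 4 CAST/EiJ mice were at 2.542%, 2.865%, 2.991% and 4.032%, and the 4 PWK/PhJ mice at 5.432%, 5.464%, 5.868% and 6.555%, so that these groups did not overlap. NZO/HlLtJ was next to CAST/EiJ, at 3.79% ± 0.902, and WSB/EiJ was at 4.37% ± 0.463. The strains 129S1/SvImJ (4.92% ± 0.722), C57BL/6 (5.2% ± 0.929), A/J (5.26% ± 0.607) and NOD/ShiLtJ (5.34% ± 1.31) overlapped one another and PWK/PhJ. The strain term passed in a permutation test within batches (F = 8.75, p = 5e-05, 100000 resamples), and p ran from 0.00027 to 0.00436 when each batch was left out. As a share of non-neuronal nuclei the extremes were again CAST/EiJ (8.9% ± 1.8) and PWK/PhJ (16.8% ± 4.7; permutation p = 0.00203). A share of nuclei cannot tell more macrophages from fewer nuclei of other types.

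**Figure D2:**
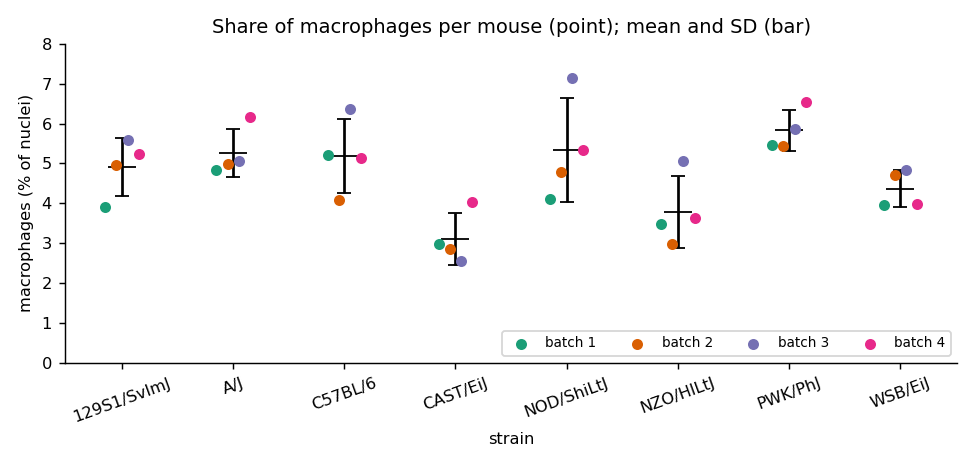
Share of macrophages among the annotated nuclei of each mouse (percent, points coloured by batch), with the mean and SD of 4 mice per strain. All 4 PWK/PhJ mice lie above 5.4% and all 4 CAST/EiJ mice at or below 4.032%.

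The share of nuclei with UMIs of 2 or more border macrophage genes, each nucleus thinned to 1000 UMIs, ranged from 0.366% ± 0.732 in A/J to 3.72% ± 2.94 (SD, n = 4) in NZO/HlLtJ. Shallower nuclei, 379 of 2638, were left out of this measure, which counted 40 nuclei. The strain term was past the threshold (permutation test, F = 2.89, p = 0.0306), but not without batch 1 (p = 0.183), batch 2 (p = 0.0752) or batch 3 (p = 0.109). With all nuclei at their own depth the same share ran from 0.877% ± 1.75 in CAST/EiJ to 6.25% ± 1.6 in 129S1/SvImJ (permutation p = 0.00197). With 3 or more border genes it was between 0.439% ± 0.877 in CAST/EiJ and 3.54% ± 2.79 in NZO/HlLtJ, and the permutation p was 0.256. One listed gene, the scavenger receptor Colec12, was itself far higher in 129S1/SvImJ, as described below.

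Across genes, counts were summed per mouse and the strain term was tested with edgeR's quasi-likelihood test, with the batch as a term and Benjamini-Hochberg adjustment. Of 3858 genes tested, 957 were called at an adjusted p under 0.05 (24.8%). Of the called genes, 768 differed at least 2-fold between the highest and the lowest strain mean (1 on the log2 scale of CPM + 1), 311 by 2 log2 units or more and 157 by 3 or more. The median of this difference, called the span below, was 1.5 over called genes and 0.863 over all genes tested. Among genes at least 3 times higher in macrophages than in other nuclei, called macrophage-enriched below, 535 of 982 were called (54.5%, median level 139 CPM), and among the other tested genes 422 of 2876 (14.7%, median 103 CPM). The ratio pooled the nuclei of all strains, so a gene high in 1 strain could become macrophage-enriched through that strain. Slpi, at a ratio of 8.49, had 169 of its 172 counts in PWK/PhJ. These shares are therefore descriptions, here and where they stand beside others below. The share called differed with the level: 16.2% of genes with a mean of 50 to 100 CPM were called, 24.6% at 100 to 300 CPM and 46.1% at 300 CPM or more. Of the 96 tested genes with a mean under 50 CPM, which passed the filter on low counts through their higher libraries, 59.4% were called. Of the genes named below, Cwc22, Colec12, Trim12a, Slpi, Catspere1, B530045E10Rik, Gm3453 and Kcnc2 passed that filter only because of 1 strain, with no more than 1 library of other strains past the minimum, so they had to differ and their values are descriptions without a test. H2-K1 (C57BL/6), Rbfox3 (PWK/PhJ) and Dab2 (NZO/HlLtJ) also passed only with the libraries of 1 strain, beside 2 or 3 libraries of others, and are given as values too. Nlrp1b and Tafa2 passed with 4 libraries of A/J and 4 of other strains, and Cd300lf with 4 of A/J and 5 of others. Such genes were tested because a few strains were high, and their p-values share this limit in part. DESeq2 called 820.

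Some genes commonly used to mark microglia were abundant in some strains and near the limit of counting in others. Fcrls, an Fc receptor-like gene used as a microglia marker (chromosome 3, 87250736 to 87263765), was at 761, 648, 804 and 707 CPM in the 4 CAST/EiJ mice and at 417, 607, 637 and 641 CPM in C57BL/6. The PWK/PhJ mice were at 0.0, 8.97, 0.0 and 12.2 CPM, on 3 counts in all, and the 5 remaining strains had means of 14.9 to 107 CPM. CAST/EiJ and C57BL/6 were thus apart from every other mouse (edgeR strain term, F = 98.5, adjusted p = 5.03e-37). Olfml3, a secreted protein of microglia, was highest in CAST/EiJ (628 ± 82.7 CPM, SD, n = 4) and WSB/EiJ (608 ± 243 CPM) and lowest in PWK/PhJ (30.1 ± 12.4 CPM). Slc2a5, a fructose transporter, had another order, with 265 ± 60.7 CPM in PWK/PhJ and 8.41 ± 10.0 CPM in 129S1/SvImJ. Lrmda, which is linked to pigment cell differentiation, was at 2090 CPM in PWK/PhJ and 466 CPM in NZO/HlLtJ.

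Of the 25 microglia identity genes, 24 were tested and 14 called, 58.3% beside 24.8% of all genes and 54.5% of those at least 3 times higher in macrophages, with a median span of 0.701 beside 0.863. The lists here and below were chosen with earlier results of these data known, and some share members. Their shares of called genes are therefore descriptions and carry no test. Most of the 14 moved little. Cx3cr1 ranged between 931 (PWK/PhJ) and 1550 CPM (CAST/EiJ) (adjusted p in edgeR = 0.0005), Csf1r between 1100 (PWK/PhJ) and 1570 CPM (WSB/EiJ) (adjusted p in edgeR = 0.00528), and P2ry12 between 1230 (CAST/EiJ) and 1900 CPM (WSB/EiJ) (adjusted p in edgeR = 0.00259). Inpp5d, a lipid phosphatase of immune signalling, was at 1420 to 1830 CPM and not called. Neither was C1qa, at 707, 1040, 4540 and 1470 CPM in NOD/ShiLtJ of batches 1 to 4.

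**Figure D3:**
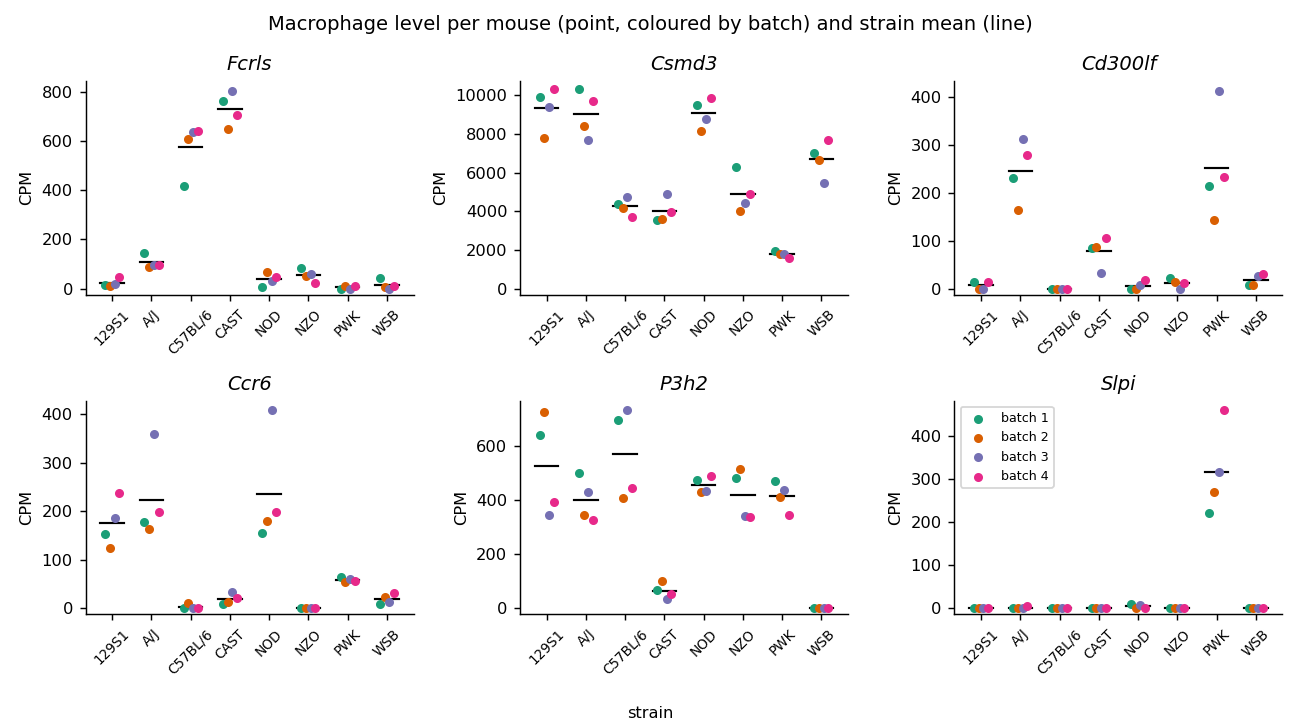
Macrophage CPM per mouse (points, coloured by batch) and strain means (lines) of 6 genes that differed between strains. Fcrls is high only in C57BL/6 and CAST/EiJ among these mice, P3h2 is at 0 in all 4 WSB/EiJ mice, and Slpi is above 200 CPM in the 4 PWK/PhJ mice alone.

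Some immune receptors were present in a few strains and near 0 in others. Cd300lf, an inhibitory receptor of the Cd300 family, was at 246 ± 64.4 CPM (SD, n = 4) in A/J, 251 ± 114 CPM in PWK/PhJ and 78.0 ± 31 CPM in CAST/EiJ. C57BL/6 had 0 of 493267 counts, which allows up to 6.08 CPM (3 counts), and the other 4 strains were at 6.54 to 18.2 CPM (edgeR, adjusted p = 4.2e-28). Ccr6, the receptor of the chemokine Ccl20, was at 235 ± 116 CPM in NOD/ShiLtJ, 224 ± 91.3 CPM in A/J and 175 ± 48.7 CPM in 129S1/SvImJ. NZO/HlLtJ had 0 of 400197 counts, an upper limit of 7.5 CPM, and the NOD/ShiLtJ mean was 31.4-fold above this limit (edgeR, adjusted p = 1.8e-26). For the lectin receptor Clec4a2, CAST/EiJ had 374 ± 56.0 CPM, no mouse of another strain passed 155 CPM, and PWK/PhJ had the lowest mean (24.7 CPM). Members of these families have near-identical relatives, and how the authors' counting shared reads among them is not given in the sources used here.

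The list of Fc, Siglec and lectin receptors had 10 of 13 tested members called (76.9%, median span 1.23), where the shares over all tested genes and over those at least 3 times higher in macrophages were 24.8% and 54.5%. Besides Cd300lf and Clec4a2 these included Sirpa, the receptor of the signal Cd47, which was 1990 ± 527 CPM (SD, n = 4) in PWK/PhJ and 711 ± 128 CPM in NZO/HlLtJ, and Cd84, at 314 CPM in C57BL/6 and 72.3 CPM in A/J. Siglech was at 704 to 1040 CPM, called (edgeR, adjusted p = 0.0126) but not without batch 1 or batch 4. Of growth factor, cytokine and chemokine receptors, 11 of 16 were called (68.8% beside these 24.8% and 54.5%, median span 1.07). The interferon gamma receptor chain Ifngr1 ran between 175 (A/J) and 450 CPM (WSB/EiJ), Csf3r between 317 (WSB/EiJ) and 716 CPM (PWK/PhJ), and the TGF-beta receptor Tgfbr1 between 1690 (PWK/PhJ) and 2750 CPM (WSB/EiJ).

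Innate sensing genes were called in 9 of 11 tested cases (81.8%, beside 24.8% of all tested genes and 54.5% of macrophage-enriched ones, median span 1.68). This list too was chosen with earlier results known, so the share is a description. Nlrp1b, an inflammasome sensor, was at 161, 171, 165 and 172 CPM in A/J and at 107, 132, 215 and 164 CPM in C57BL/6, and its means in the other 6 strains were 14.6 to 46.7 CPM (edgeR, adjusted p = 1.66e-16). Cd180, a Toll-like receptor homologue, was at 405 CPM in NOD/ShiLtJ and 119 CPM in CAST/EiJ and Ly86, which binds Cd180 at the cell surface, at 1790 CPM in WSB/EiJ and 876 CPM in 129S1/SvImJ. Cd14, a co-receptor for endotoxin, ran between 79.2 (A/J) and 209 CPM (PWK/PhJ), and Nfkb1 (223 to 399 CPM) was not called. Of a list of 30 innate immune genes known to vary between inbred strains, all 8 that passed the filter on low counts were called, which is no support for the list as a whole, and Naip5, Naip2, Nlrp1b, Tlr4 and Il18 were also among the innate sensing genes just counted. They included Tlr4, the endotoxin receptor (59.8 CPM in NZO/HlLtJ, 230 CPM in CAST/EiJ), Naip5, a sensor of flagellin (20.1 CPM in PWK/PhJ, 95 CPM in WSB/EiJ), and Fcgr3 (120 CPM in CAST/EiJ, 307 CPM in WSB/EiJ). The Tlr4 call was lost without batch 4 and that of Fcgr3 without batch 3. Trim12a, also of this list, was at 120 ± 26.4 CPM in C57BL/6 and at 0 to 12.0 CPM in the other strain means.

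Complement and clearance genes also differed. Csmd3, which encodes a very large membrane protein with complement-control domains, was highest in 129S1/SvImJ (9340 ± 1110 CPM, SD, n = 4), NOD/ShiLtJ (9070 ± 749 CPM) and A/J (9020 ± 1170 CPM). PWK/PhJ was at 1920, 1810, 1810 and 1590 CPM, below every mouse of the other strains (edgeR strain term, F = 94.2, adjusted p = 1e-37). Of 8 complement genes tested 5 were called (62.5% beside 24.8% of all genes and 54.5% of macrophage-enriched ones, median span 1.01), including C1qc (516 CPM in A/J, 1020 CPM in C57BL/6) and Itgam, the alpha chain of complement receptor CR3 (286 CPM in PWK/PhJ, 520 CPM in NZO/HlLtJ). The C1qc call was lost without batch 2.

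Of genes of phagocytosis and lipid handling, 9 of 16 tested were called (56.2%, median span 0.943), near the 54.5% of macrophage-enriched genes and above the 24.8% of all genes. Apoe, a lipid carrier, was at 3220, 3440, 3750 and 2310 CPM in NZO/HlLtJ and at 1430 ± 424 CPM (SD, n = 4) in WSB/EiJ, the lowest strain (edgeR, adjusted p = 0.00146). Its ratio to all other nuclei pooled was 2.25, so it was not macrophage-enriched, and the part of its RNA from other cells was not tested. The cholesterol exporter Abca1 ran between 104 (PWK/PhJ) and 358 CPM (129S1/SvImJ), the tetraspanin Cd9 from 171 to 447 CPM in the same strains, and the lysosomal protease Ctsl between 163 (A/J) and 355 CPM (PWK/PhJ). Mertk, a receptor for dying cells, was at 2050 CPM in A/J and 1210 CPM in NZO/HlLtJ. Among purine sensors, 4 of 8 were called (50% beside 24.8% of all and 54.5% of macrophage-enriched genes, median span 0.836 beside 0.863 of all genes): Entpd1, which degrades extracellular ATP (397 CPM in PWK/PhJ, 772 CPM in 129S1/SvImJ), P2rx7 (113 CPM in PWK/PhJ, 262 CPM in NZO/HlLtJ), P2ry6 (290 CPM in C57BL/6, 515 CPM in CAST/EiJ) and P2ry12. The P2ry6 call was lost without batch 2 or batch 4.

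Transcription factors of macrophages were called in 9 of 27 cases (33.3% beside 24.8% of all and 54.5% of macrophage-enriched genes, median span 0.851 beside 0.863 of all genes). Mef2a ran between 1030 (PWK/PhJ) and 2060 CPM (NZO/HlLtJ), Mef2c between 1000 (NOD/ShiLtJ) and 1810 CPM (A/J), and Foxn3 between 914 (129S1/SvImJ) and 1520 CPM (CAST/EiJ). Sall3 was at 30.7, 30.4, 29.1 and 37.5 CPM in A/J, below all 28 other mice (48.5 to 235 CPM). Spi1, Irf8, Runx1, Sall1 and 14 further factors, among them Zeb2 (1400 to 1870 CPM), were tested and not called. Of 26 immune kinases, GTPase regulators and cytoskeletal genes, 15 were called (57.7% beside 24.8% of all and 54.5% of macrophage-enriched genes, median span 0.773 beside 0.863 of all genes), with small ranges: Dock2 at 647 to 1140 CPM, Dock8 at 775 to 1320 CPM, Dock10 at 722 to 1210 CPM, Apbb1ip at 1000 to 1670 CPM and Elmo1 at 1960 to 2690 CPM, the last not called without batch 4. Of 5 antigen presentation genes 1 was called (20% beside 24.8% of all genes), the class I gene H2-K1 (28.8 CPM in A/J, 110 CPM in C57BL/6), which passed the filter only with the libraries of C57BL/6, so this count supports nothing. B2m (283 to 456 CPM) and H2-D1 (44.8 to 110 CPM) were not called, and edgeR called none of 4 immediate early and stress genes, 1 of which, Rhob (81.9 to 187 CPM), had an unadjusted p under 0.05. DESeq2 called 0 of these 4.

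Interferon response genes stood out in 1 mouse. The 35 listed genes of the table summed to 3290 CPM in the NZO/HlLtJ mouse of batch 4, whereas the other 31 mice had a median of 595 CPM and a highest value of 1040 CPM. The 3 other NZO/HlLtJ mice were at 757, 790 and 1040 CPM. In that mouse, 23 of the 35 genes were above every other mouse, among them Herc6 (404 CPM, median of the others 62.0 CPM), Parp14 (382 and 57.9 CPM), Rnf213 (281 and 53.6 CPM), Sp100 (213 and 14.7 CPM) and Oasl2 (157 and 0.0 CPM). Some of the 23 rested on few counts, such as Rsad2 on 2 and Zbp1 on 1. The share of all genes that were highest in this mouse was not computed, so the count of 23 has no background. The nuclei of the mouse were unequal. Of its 54 nuclei, 12 (22.2%) had no interferon gene and 16 (29.6%) had 6 or more, a number that 12 of 2584 nuclei of all other mice reached (0.464%), at median depths of 1583 and 1429.5 UMIs. The same list was also highest in this mouse among 32 mice in astrocytes (407 CPM, median of the others 236 CPM) and in oligodendrocytes (224 and 127 CPM), and was at 2370 CPM in endothelium, where 3 mice were higher. In Drd1+ and Drd2+ neurons it was within the range of the others. This mouse was singled out after its values were seen, and its difference has no test.

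**Figure D4:**
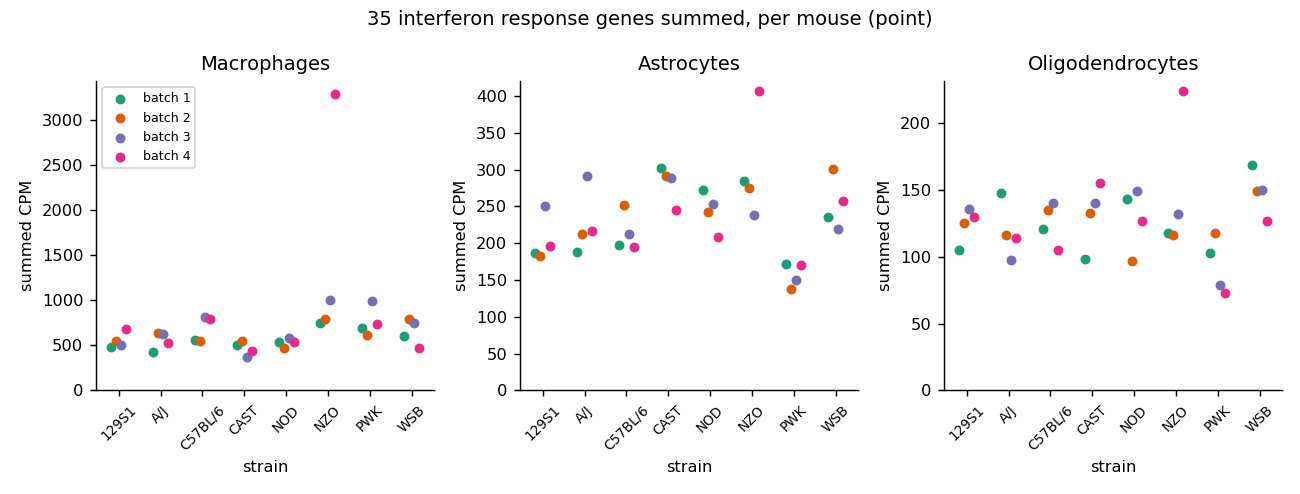
Summed CPM of the 35 interferon response genes per mouse (points, coloured by batch) in macrophages, astrocytes and oligodendrocytes, by strain, as a share of all counts of the library; the axes differ in scale. The NZO/HlLtJ mouse of batch 4 is highest in each, at 3290, 407 and 224 CPM.

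Of 5 interferon genes tested for strain, 2 were called (40.0% beside 24.8% of all and 54.5% of macrophage-enriched genes, median span 1.75). Slfn8 was at 203, 237, 375 and 337 CPM in NZO/HlLtJ, and other strains had means of 44.0 to 142 CPM (edgeR, adjusted p = 1.62e-12, and 2.77e-09 without the mouse above). Trim30a was highest in NZO/HlLtJ through that mouse (63.9, 132, 118 and 314 CPM), with an adjusted p in edgeR of 0.0227, and of 0.211 without it. It was not called without batch 2 either. Without this mouse, 953 genes in all were called. Members of the Slfn and Trim30 families share sequence, so reads may be split among them.

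Some genes known best from other cells differed strongly between strains in macrophages. Slc1a3, the glutamate transporter that marks astrocytes (chromosome 15, 8634124 to 8710807), was at 3170, 4750, 4620 and 4690 CPM in the 4 macrophage libraries of 129S1/SvImJ and at 104 to 610 CPM in all other mice (edgeR strain term, F = 145, adjusted p = 1.2e-21). It was spread over nuclei, with a median of 5 UMIs per nucleus in 129S1/SvImJ and 0 in each other strain. The 5 other listed astrocyte genes summed to 985 ± 450 CPM (SD, n = 4) in 129S1/SvImJ macrophages and to 690 to 1100 CPM in the means of the other strains. In astrocytes themselves, Slc1a3 was at 1890 ± 147 CPM in 129S1/SvImJ, and the 7 other strain means were 1810 to 2680 CPM.

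Pecam1, an adhesion molecule of endothelium and blood cells, was at 305 ± 119 CPM (SD, n = 4) in CAST/EiJ, 159 ± 73.1 CPM in NZO/HlLtJ and 140 ± 52.4 CPM in PWK/PhJ, and at 14.5 to 23.1 CPM in the other 5 strains (edgeR, adjusted p = 1.48e-23). The endothelial genes Flt1 and Cldn5 were at 9.53 and 14.5 CPM over the whole cluster, a pool of all strains that does not give their level in CAST/EiJ. Colec12, a scavenger receptor, was at 246, 478, 187 and 216 CPM in 129S1/SvImJ and at no more than 92.2 CPM elsewhere, a description for the reason given above. Stab1, a scavenger receptor on the border macrophage list, ran between 55.0 (PWK/PhJ) and 224 CPM (WSB/EiJ), while Mrc1 (22.4 to 168 CPM), F13a1 (13.5 to 132 CPM) and Dab2 (19.9 to 94.3 CPM) were not called. Of 7 neuronal genes tested 2 were called (28.6% beside 24.8% of all genes), Rbfox3 and Pde10a, both highest in PWK/PhJ (111 and 185 CPM), where Rbfox3 passed the filter only with the libraries of that strain, and edgeR called none of 6 oligodendrocyte genes (0 at an unadjusted p under 0.05 and 0 by DESeq2), Mbp being at 3070 to 3690 CPM. Pde10a was not called without batch 2, 3 or 4 or without the NZO/HlLtJ mouse of batch 4. Slc1a2, at 331 to 577 CPM, was called, but not without the 47 nuclei that held over 2% UMIs of other types, nor without batch 2 or batch 3. The part of RNA from other cells in these results was not tested further.

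Cwc22, a splicing factor (chromosome 2), was at 1600, 1630, 1600 and 1790 CPM in WSB/EiJ and at most 88.8 CPM in any other mouse. Copies of this gene are known to differ in number between mouse strains, so its reads may come from more than 1 copy. Several other genes had large F statistics. Dlgap1, a synaptic scaffold, reached 1580 ± 209 CPM (SD, n = 4) in 129S1/SvImJ, 411 ± 66.3 CPM in NZO/HlLtJ and 55.3 to 106 CPM elsewhere. The potassium channel Kcnma1 ran between 25.1 (CAST/EiJ) and 667 CPM (A/J), and Tafa2, a secreted chemokine-like protein, was at 352 ± 84.4 CPM in NOD/ShiLtJ, 231 ± 49.1 CPM in A/J and at most 7.54 CPM in the other strain means. Nav3, which guides the cytoskeleton, was abundant in all strains, between 2570 (NOD/ShiLtJ) and 8420 CPM (CAST/EiJ).

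Others among the genes with the largest F were at least 3 times higher in macrophages than in all other nuclei pooled, which does not mean higher than in each other cluster. Serinc3, a membrane protein that affects lipid order, was low in PWK/PhJ (249 ± 40.0 CPM, SD, n = 4) and 129S1/SvImJ (180 ± 35.7 CPM), and was at 868 to 1330 CPM in the other 6 strains. Gatm, an enzyme of creatine synthesis, was at 118 ± 34.9 CPM in C57BL/6, 157 ± 24.5 CPM in PWK/PhJ and 240 ± 61.9 CPM in CAST/EiJ, and at 559 to 830 CPM elsewhere, whereas in oligodendrocytes its strain means were 574 to 1020 CPM. Arsb, a lysosomal sulfatase, ran between 349 (C57BL/6) and 1910 CPM (NZO/HlLtJ), and Fbxl7, of the ubiquitin ligases, from 0 of 306885 counts in CAST/EiJ (up to 9.78 CPM) to 437 ± 99.4 CPM in WSB/EiJ. The transcript E330020D12Rik was highest in CAST/EiJ (1050 CPM) and lowest in C57BL/6 (227 CPM). AC149090.1, which was not macrophage-enriched (ratio 1.46), was at 2530 CPM in CAST/EiJ and 421 CPM in A/J. These were also its highest and lowest strains in astrocytes (935 and 60.7 CPM) and in oligodendrocytes (737 and 53.5 CPM). Its interaction was called with both (edgeR, adjusted p = 1.28e-06 and 5.56e-11).

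Contrasts of 1 strain with the average of the 7 others were also tested. PWK/PhJ had most calls, 524 of 3858 (13.6%), of which 53.2% were higher in PWK/PhJ, followed by CAST/EiJ with 371 (9.62%, 53.1% higher). WSB/EiJ had 239 (6.19%), A/J 246 (6.38%), NOD/ShiLtJ 214 (5.55%), 129S1/SvImJ 196 (5.08%), NZO/HlLtJ 195 (5.05%) and C57BL/6 189 (4.9%). The share of calls that were higher was 60.2% to 72.8% in these 6. In PWK/PhJ, 57 called genes had all 4 mice outside the range of the other 28, in CAST/EiJ 45, and in the remaining strains 3 to 13. These counts include genes that passed the filter on low counts only through that strain, such as Slpi and Catspere1 in PWK/PhJ. The difference in the number of calls between strains was not tested. All strains were counted on the build GRCm38 per the submitters' processing notes. Whether reads of each strain were counted equally well was not tested, here or for genes without a count in a strain.

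P3h2, an enzyme that modifies collagen (chromosome 16, 25959284 to 26105813), was not detected in WSB/EiJ: 0 of 424439 counts, an upper limit of 7.07 CPM, while the 28 other mice averaged 406 CPM, at least 57.5-fold higher (edgeR, adjusted p = 4.04e-24). CAST/EiJ was also low, at 63.1 ± 27.9 CPM (SD, n = 4). Slpi, a secreted inhibitor of proteases, was at 220, 269, 315 and 459 CPM in PWK/PhJ, on 169 counts, and on 3 counts in all other mice together. Catspere1, known from sperm, was also high in PWK/PhJ, at 123 ± 17.5 CPM against a highest value of 15.4 CPM elsewhere.

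In C57BL/6 the X-linked gene Nhs, an actin regulator, was at 11.7 ± 10.1 CPM (SD, n = 4), below all other mice (81.0 CPM or more; log2 fold change -4.59 ± 0.34 SE, edgeR, adjusted p = 3.18e-20). The predicted gene Gm5086 had no count in CAST/EiJ, at least 26.5-fold below the mean of the others (259 CPM), whereas the transcript B530045E10Rik was at 314, 474, 939 and 475 CPM there and at most 18.7 CPM elsewhere. In A/J, Whrn, a scaffold of sensory cells, was at 243 to 269 CPM and no other mouse passed 197 CPM (log2 fold change 2.29 ± 0.21 SE, edgeR, adjusted p = 3.38e-16). In NOD/ShiLtJ the protease Adamts16 was at 196, 252, 257 and 259 CPM (up to 163 CPM elsewhere), and in NZO/HlLtJ the potassium channel Kcnc2 was at 128 ± 23.3 CPM (up to 38.0 CPM elsewhere). The matrix protein Npnt had a single count in NZO/HlLtJ, and its other mice were at 16.7 to 263 CPM. In 129S1/SvImJ the predicted gene Gm3453 was at 121 ± 22.3 CPM (up to 33.7 CPM elsewhere).

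Strain effects in macrophages were compared with those in 2 other glial clusters by the interaction of strain and cluster in edgeR, with the mouse as a block. With astrocytes, 557 of 6735 genes were called (8.27%), and with oligodendrocytes 723 of 7113 (10.2%). All 957 genes called for strain in macrophages were in both tests, and 374 and 434 of them had a called interaction. Both comparisons and the choice of the 957 share the macrophage libraries. A missing call does not show an equal strain effect, because a gene can be near 0 in the other cluster. Fcrls had strain means of 5.3 to 730 CPM in macrophages and at most 1.87 CPM in astrocytes (edgeR interaction, adjusted p = 0.314). The genes with the largest F against astrocytes were Ccdc85a, Slc1a3, Prkd1, Dlgap1 and Dgki. Prkd1, a protein kinase, had 677 ± 69.7 CPM (SD, n = 4) in PWK/PhJ macrophages, 647 ± 268 CPM in 129S1/SvImJ, 156 ± 123 CPM in CAST/EiJ and 7.31 to 15.1 CPM in the other 5 strains. In astrocytes its means stayed between 475 and 570 CPM in all 8 strains (edgeR interaction, adjusted p = 2.42e-24).

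Ccdc85a was at 586 ± 89.8 CPM (SD, n = 4) in PWK/PhJ macrophages, 536 ± 54.1 CPM in A/J and 471 ± 171 CPM in NZO/HlLtJ, with 3.12 to 17.7 CPM in the other 5, whereas in astrocytes it ran from 196 to 652 CPM (edgeR interaction, adjusted p = 9.84e-36). Dgki, a lipid kinase, was at 593 ± 116 CPM in CAST/EiJ macrophages and at 9.01 to 141 CPM in the others, and in astrocytes CAST/EiJ was among the lower strains (131 ± 30.7 CPM). Against oligodendrocytes, the largest F statistics were those of Prkd1, Slc1a3, Rubcnl, Tgfbr2 and Slpi. Slpi passed the macrophage filter only through PWK/PhJ, so its rank is no support and its values are a description. The TGF-beta receptor Tgfbr2, which was not called in macrophages (327 to 492 CPM), was at 1.92 ± 0.703 CPM in C57BL/6 oligodendrocytes and 1.44 ± 1.44 CPM in NOD/ShiLtJ, and at 60.1 to 122 CPM in the other 6 strains (edgeR interaction, adjusted p = 7.6e-36). Rubcnl, an autophagy regulator, was at 72.7 to 178 CPM in macrophages of all strains, while in oligodendrocytes CAST/EiJ alone reached 190 ± 78.5 CPM and no other strain mean passed 4.7 CPM. Slpi was at 0.807 to 84.8 CPM in oligodendrocytes, where PWK/PhJ was not high (16.1 ± 12.9 CPM).

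**Figure D5:**
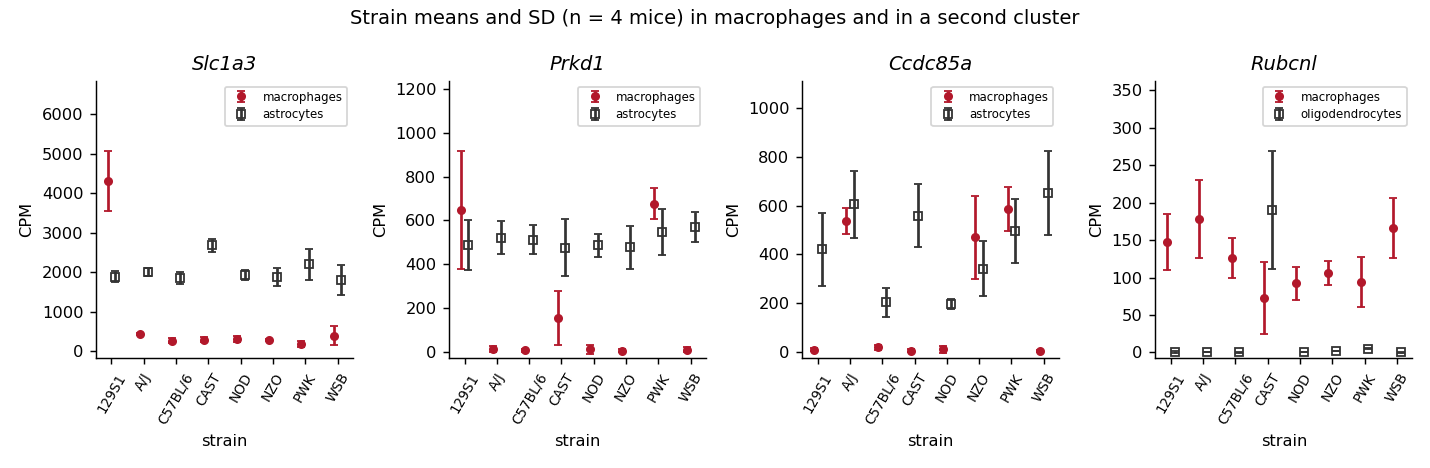
Strain means and SD (n = 4 mice, CPM) in macrophages (filled) and in astrocytes or oligodendrocytes (open) for 4 genes with a called interaction. Slc1a3 is high only in 129S1/SvImJ macrophages while astrocytes stay between 1810 and 2680 CPM; among oligodendrocytes, Rubcnl is above 5 CPM only in CAST/EiJ.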

How the data were processed

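The data were single-nucleus RNA libraries of 4 batches of mouse striatum, each pooling 1 mouse of every strain. The authors deposited raw UMI counts per gene and barcode, made with Cell Ranger ARC 2.0.0 per the submitters' processing notes, which also name bcl2fastq 2.20.0.422 and the build GRCm38. Their deposited metadata gave each nucleus its strain from genotype, its cluster and its doublet call. All 2638 macrophage nuclei were singlets by both of their doublet calls, and no doublet caller was run again. Each batch was prepared as 1 pool per the labels, so the batch number blocks the mice and batch was a term of the model.

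Counts were summed per mouse and cluster and tested with edgeR 4.0.16 in R 4.3.3 (quasi-likelihood, robust, TMM scaling, filtering by expression, Benjamini-Hochberg adjusted p under 0.05). CPM were scaled by the TMM factor. DESeq2 1.42.0 was an alternative. Shares were tested by permuting strains within batches (two-sided by F, 100000 resamples). On simulated counts for the macrophage libraries, the strain test recovered 41.8% of 189 tested genes changed 2-fold in 1 strain, with 5.95% of calls false, and the interaction test with astrocytes 8.5% of 200 (10.5% false).

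Genes were named by fixed rules: the largest F overall and among genes 3 times higher in macrophages, with a strain mean of at least 50 CPM; per strain, the 2 largest changes whose mice lay outside all others; the 5 largest F per interaction; and, from each of 22 gene lists, up to 4 called genes and 2 abundant ones. Members and lists were chosen with earlier results of these data known. A few genes of the lists are not reported here. Labels do not say more of how mice were kept, so p-values measure the spread between these mice. Python 3.11.15 and scipy 1.17.1 were used.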

Additional observations from a re-analysis of the deposited data

Results flagged for a closer look

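In groups of 4 mice, 11 of 73 tested groups had 1 mouse far from the other 3. No expected number is given, because the groups share mice and batches. In A/J, C57BL/6 and NZO/HlLtJ it was the batch 3 mouse for median UMIs per nucleus, at 1010, 1070 and 1130 UMIs. The summed interferon response genes of the NZO/HlLtJ mouse of batch 4 stood at 3290 CPM, and the summed border macrophage genes of 1 CAST/EiJ mouse at 628 CPM (158 to 201 CPM in the other 3). Single genes with such a mouse were Dlgap1 (1890 CPM) and Slc1a3 (3170 CPM, the lowest of 4) in 129S1/SvImJ, Fbxl7 in WSB/EiJ (585 CPM), Ccr6 in NOD/ShiLtJ (408 CPM), Adamts16 in NOD/ShiLtJ (196 CPM, the lowest of 4) and Npnt in NZO/HlLtJ (10.7 CPM, its only count).

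Strain differences that differed between clusters by the edgeR interaction test were, against astrocytes, those of Ccdc85a (adjusted p = 9.84e-36), Slc1a3 (1.31e-34), Prkd1 (2.42e-24), Dlgap1 (1.11e-33) and Dgki (5.16e-24). Against oligodendrocytes they were those of Prkd1 (adjusted p = 9.02e-34), Slc1a3 (9.9e-33), Rubcnl (3.69e-36), Tgfbr2 (7.6e-36) and Slpi (1.46e-33). Slpi passed the macrophage filter only through PWK/PhJ, so its value is a description and no support.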

How the results depend on the processing

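The strain term called 795 genes with no replicate block, 793 of them also called with it, and 216 of 841 tested when all libraries were thinned to 27325 counts, which leaves fewer genes and counts. Leaving out each batch gave 696 to 833 calls for the strain term, 115 to 149 for C57BL/6, 247 to 359 for CAST/EiJ, 144 to 183 for WSB/EiJ, 328 to 501 for the interaction with astrocytes and 463 to 668 for that with oligodendrocytes; the cause was not tested beyond the smaller number of mice. With no filter on low counts the strain term called 1368 of 20423 genes. The permutation p for median UMIs was 0.912 with no replicate block and 0.00178 to 0.0727 without each batch. That for the share of nuclei with border macrophage genes was 0.0514 with no replicate block, 0.00197 without thinning, 0.0018 for at least 1 gene, 0.256 with 3 or more genes (chosen after seeing the data) and 0.0137 to 0.183 without each batch.

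Among 85 genes named for the strain term, 19 lost their call under at least 1 alternative, and with no replicate block these included H2-K1, C1qc, Cd9, Ctsl, Trim30a, Cd14, P2ry12, P2ry6, Siglech, Elmo1, Fcgr3, Pde10a and Slc1a2. Slpi lost its call for PWK/PhJ under DESeq2; genes that passed the filter through 1 strain, as it did, are no sign of stability. None of 10 named interactions lost its call, though that of Slpi is a description only. No value changed direction under the alternatives run. For 28 named genes thinning gave no value, nor did leaving out border nuclei for Mrc1 or batch 1 for Trim12a. Nuclei with few UMIs limit low genes: 3858 of 32285 genes were tested.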

Other observations

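The batches differed in the level of microglia genes. C1qa had a mean of 2620 CPM ± 1110 (SD, n = 8 mice) in batch 3 and 964 to 1370 CPM in the other batches, and C1qb, its partner chain, 1450 ± 599 CPM against 621 to 947 CPM. P2ry12 stood at 2070 ± 560 CPM in batch 3 and at 1180 to 1650 CPM elsewhere, whereas the summed border macrophage genes were at 277 to 431 CPM in all 4 batches. These are values without a test.

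The authors' index of nuclei in their open chromatin matrix held 72.7% of the macrophage nuclei and 87.7% of all annotated nuclei, from 61.3% of macrophage nuclei in C57BL/6 to 84.2% in NOD/ShiLtJ.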
